A study of Mus musculus with 16 samples.

Results

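The genes described here encode the enzymes of cholesterol and fatty acid synthesis and the proteins that control them. They were chosen by symbol as a set of 32, comprising 16 enzymes of the mevalonate and sterol pathway, 6 regulators or sterol carriers and 10 enzymes that make or modify fatty acids. All 32 were found, each as a unique symbol, among the 25054 entries of the count table. They were followed across 16 RNA sequencing libraries from lung and liver of newborn C57BL/6J pups. Pups were wild type (WT), heterozygous or null for Man1a2tm1.1Ahe, a germline deletion of exon 2 of Man1a2, which encodes a Golgi mannosidase that trims N-glycans. Heterozygous parents of both sexes were fed a solution of N-acetylcysteine (NAC), an antioxidant and glutathione precursor, giving up to 1 g/kg body weight, or water as placebo, from 1 week before breeding until delivery. Pups were monitored for 24 h, and each library is a pool of RNA from 3 experiments, or of 2 for dead heterozygous pups. There were 4 kinds of pup, namely WT survivors, heterozygous survivors, heterozygous pups that died and null pups that died. Each kind with either treatment gave 1 library labelled lung and 1 labelled liver. Survivors were harvested at the end of monitoring and the other pups at death, so time of harvest cannot be told apart from survival.

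Cholesterol is built from acetyl-CoA through mevalonate, isoprenoids and squalene, which is closed to a ring and trimmed to the final sterol. Fatty acid synthesis starts from the same acetyl-CoA and runs through malonyl-CoA to palmitate, which elongases and desaturases then modify. Sterol regulatory element binding proteins (SREBPs) switch on both sets of genes, and SCAP and the INSIG proteins decide whether SREBPs leave the endoplasmic reticulum. Newborn liver makes these lipids for export, and alveolar type 2 cells of the lung make fatty acids for the phospholipids of surfactant.

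Libraries were sorted by measured markers because tissue labels and markers often differed. With Sftpc, the surfactant protein C gene, at 1000 CPM (read counts scaled to a common library total) or more and Alb, the albumin gene, under 1000 CPM, 7 libraries were lung-content. With Alb at 50000 CPM or more, 8 were liver-content. The dead null placebo library labelled lung was mixed, with 5553 CPM of Sftpc and 9280 CPM of Alb. The markers went against the label in 4 liver-content and 4 lung-content libraries of the 16. The mixed library, labelled lung, held markers of both tissues. Lung-content libraries had 10.5 to 135 CPM of Alb, and liver-content libraries 0.0621 to 3.10 CPM of Sftpc. Depth was 7236865 to 11808823 counts in lung-content and 14115802 to 16107749 in liver-content libraries, and Rn45s, a ribosomal RNA, took 0.845% to 26.2% of counts. Man1a2 had 22.6 to 121 CPM in the 4 WT, 31.6 to 85.0 in the 8 heterozygous and 24.5 to 70.0 in the 4 null libraries. Those ranges overlap, and gene counts do not separate the deleted exon. Every member had at least 17 counts in every library, and all 32 passed the filter on low counts in each fit. In bulk RNA, fewer cells of a type and less RNA per cell cannot be told apart.

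The sterol enzymes were mostly higher in liver-content libraries, while Fasn, Me1, Scd1 and Acaca of the fatty acid enzymes were higher in lung-content libraries. Content was set from measured genes, so these levels are a description and were not tested. The ranges of liver-content libraries lay wholly above those of lung-content libraries for 9 of 32 members, against 13% of the 14175 genes averaging 1 CPM or more. They lay wholly below for 5 members, against 36.8% of all genes. The median log2 difference between the medians (liver-content minus lung-content) was 1.11 over the members and -0.58 over all genes. With CPM scaled by TMM factors, which offset differences in RNA composition, these medians were 1.68 and 0.10. With that scaling 18 members lay above and 2 below, against 26.6% and 23.2% of 14078 genes.

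**Figure D1:**
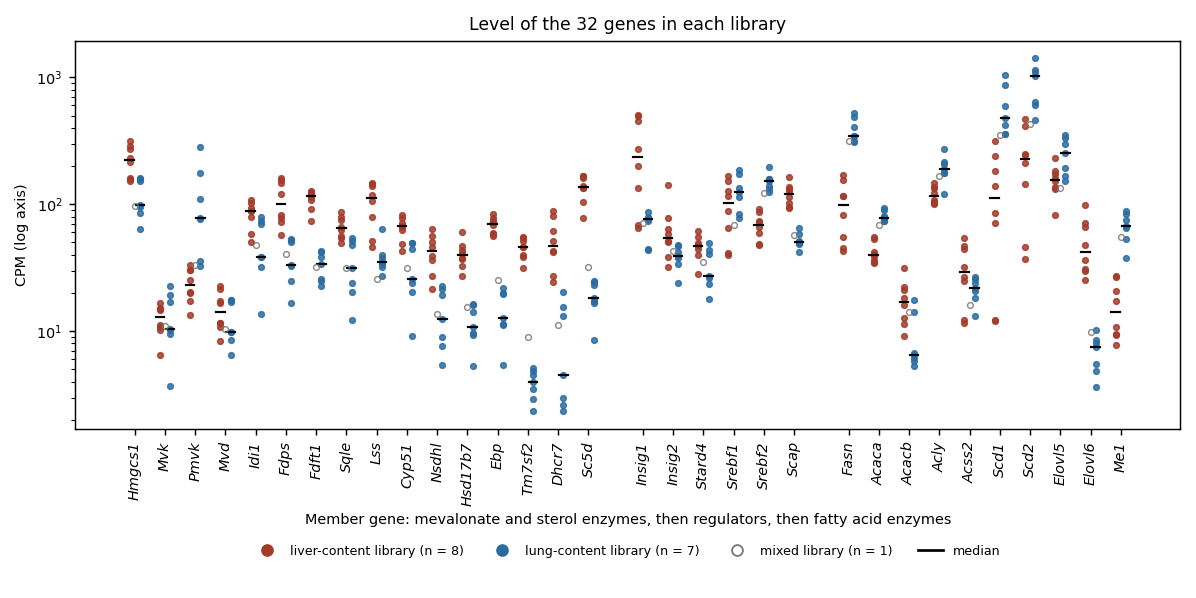
Level of each of the 32 genes (CPM, log axis) in the 8 liver-content, 7 lung-content and 1 mixed libraries, with a bar at the median of each kind. Sterol enzymes such as Tm7sf2 and Sc5d sit higher in liver-content libraries, while Fasn, Scd1 and Me1 sit higher in lung-content libraries.

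Among the 16 sterol enzymes, 7 lay wholly above in liver-content libraries and none wholly below, against 13% and 36.8% of all genes. Tm7sf2, a sterol reductase, ranged from 31.2 to 54.9 CPM in liver-content libraries (median 45.9) and from 2.35 to 5.14 in lung-content libraries (median 4.01). Dhcr7, the enzyme of the last reduction to cholesterol, ranged from 24.4 to 88.7 CPM and from 2.35 to 20.4 CPM in the same order. Sc5d, the sterol desaturase just before it, ranged from 77.6 to 167 CPM and from 8.57 to 25.0 CPM. The remaining enzymes that did not overlap were Ebp, Hsd17b7, Fdft1 and Fdps, with ratios of medians from 3.06 to 5.51. Early steps differed less. Hmgcs1, which makes the precursor of mevalonate, ranged from 152 to 315 CPM in liver-content and from 64.1 to 162 CPM in lung-content libraries, and the top of the lung-content range passed the bottom of the liver-content range. Pmvk, which adds the second phosphate to mevalonate, was the exception among the sterol enzymes, with a median of 22.98 CPM in liver-content and 77.7 CPM in lung-content libraries and ranges that overlapped.

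Among the fatty acid enzymes, 4 of 10 lay wholly below in liver-content libraries, against 36.8% of all genes. Only 1 lay wholly above, against 13%, so both counts were near the shares of all genes. Fasn, the fatty acid synthase, ranged from 42.9 to 170 CPM in liver-content libraries and from 310 to 520 CPM in lung-content libraries. Me1, which supplies NADPH for the synthesis, ranged from 7.76 to 27.1 CPM and from 38 to 89.3 CPM. Scd1, a stearoyl-CoA desaturase, ranged from 12.02 to 317 CPM and from 359 to 1034 CPM, and Acaca, which makes malonyl-CoA, from 34.5 to 55.2 and from 73.7 to 93.7 CPM. With TMM scaling the groups overlapped for Scd1 and Acaca, and those of Fasn and Me1 stayed apart. Acly, which frees acetyl-CoA from citrate, overlapped, with 101.2 to 147 CPM in liver-content and 120 to 275 CPM in lung-content libraries. Elovl6, the elongase of palmitate, ran the other way, with 25.5 to 98.8 CPM in liver-content and 3.62 to 10.2 CPM in lung-content libraries.

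Of the regulators, Scap was wholly above in liver-content libraries, at 92.9 to 163 against 42.0 to 64.7 CPM. Srebf2, the SREBP that acts mainly on sterol genes, was wholly below, at 47.8 to 92.5 against 125 to 197 CPM, and overlapped with TMM scaling. Srebf1, the SREBP that acts mainly on fatty acid genes, overlapped, and its difference of medians turned from -0.30 to 0.12 on the log2 scale with TMM scaling. Insig1, an SREBP target that holds SCAP back, ranged widely in liver-content libraries (65.6 to 509 CPM) and narrowly in lung-content libraries (43.8 to 87.2 CPM).

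Per kilobase of annotated exon, the order of levels also differed. In liver-content libraries the highest members were Insig1 at a median of 76.1 CPM per kb, Hmgcs1 at 48.6, Elovl5 at 44.3 and Scd2 at 42.0. In lung-content libraries they were Scd2 at 189, Scd1 at 97.7, Elovl5 at 72.5 and Pmvk at 45.4 CPM per kb. The ranges of neighbours in both orders overlapped. The lowest medians were those of Acacb, at 1.78 in liver-content and 0.677 CPM per kb in lung-content libraries, and of Dhcr7, at 0.773 in lung-content libraries. Scd1 and Scd2 are similar neighbouring genes on chromosome 19 and only uniquely mapped reads were quantified, so reads that fit both may be missing from either value.

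The members also varied by different amounts within a kind of library. The median fold range, highest over lowest library, of the 16 sterol enzymes was 2.20 in liver-content and 3.62 in lung-content libraries. For the fatty acid enzymes it was 3.68 and 2.34, and for the regulators 3.17 and 1.98. Scd1 spanned 26.4-fold and Scd2 12.8-fold over the liver-content libraries, and Pmvk and Dhcr7 8.65-fold and 8.69-fold over the lung-content libraries. These spreads contain survival, genotype and treatment together.

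NAC was compared with placebo within each kind of library, which addresses whether libraries labelled NAC and placebo differed within a marker class. Treatment, genotype and survival were taken from the same labels as tissue, and whether these were right was not tested. Both null NAC libraries were liver-content, while the null placebo libraries were lung-content and mixed. In the 7 lung-content libraries (3 NAC and 4 placebo), 4 sterol enzymes fell and 2 rose with NAC, and 1 regulator and 1 fatty acid enzyme rose. That is 4 of 32 members higher, against 7.80% of 14032 genes tested, and 4 lower, against 5.46%. The test was edgeR's quasi-likelihood test with survival status as a covariate and Benjamini-Hochberg adjustment over all genes. Each pool was of its own pup group, so the p-values treat libraries of different groups as replicates.

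Sqle, squalene epoxidase, which adds oxygen to squalene, lies on chromosome 15 from 59315077 to 59331192 (GRCm38, plus strand). It had 51.3 CPM in the live WT, 47.6 in the live heterozygous, 54.4 in the dead heterozygous and 31.3 in the dead null placebo library. With NAC it had 24.1 CPM in live WT, 12.2 in live heterozygous and 20.3 in dead heterozygous pups. The groups did not overlap, and the null placebo library lay nearest to NAC. The log2 fold change was -1.09 ± 0.20 (SE, adjusted p = 0.0223).

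Idi1, isopentenyl diphosphate isomerase (chromosome 13, 8885501 to 8892451), had 79.9, 69.8 and 73.6 CPM in live WT, live heterozygous and dead heterozygous placebo libraries and 31.8, 13.7 and 38.2 CPM with NAC in the same order. Its value in the null placebo library was 38.1 CPM, inside the NAC range before scaling. It fell by 1.03 on the log2 scale (SE 0.27, adjusted p = 0.0403). Fdps, farnesyl diphosphate synthase (chromosome 3, 89093588 to 89101959), had 52.5, 53.1 and 50.6 CPM with placebo and 24.6, 16.6 and 33.0 CPM with NAC, and 32.7 CPM in the null placebo library. Its log2 fold change was -0.72 ± 0.19 (adjusted p = 0.0408). For both enzymes the 3 placebo libraries other than the null one stood apart from all NAC libraries.

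Dhcr7 (chromosome 7, 143823145 to 143848410) had the largest fall among the members that passed. It had 20.4, 15.5 and 13.2 CPM with placebo in the order above, 2.97 CPM in the null placebo library, and 2.60, 2.35 and 4.50 CPM with NAC. The lowest of these rest on few reads, 23 counts in the null placebo and 17 in the live heterozygous NAC library. Its log2 fold change was -1.76 ± 0.49 (adjusted p = 0.0461).

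Pmvk, phosphomevalonate kinase (chromosome 3, 89454541 to 89469013), went against the other mevalonate enzymes. It had 35.4, 32.6 and 77.7 CPM in the placebo libraries, 76.6 CPM in the null one, and 110, 177 and 282 CPM with NAC, with no overlap. Its log2 fold change was 2.25 ± 0.26 (adjusted p = 0.0168), the largest of any member. Lss, lanosterol synthase, which closes the sterol ring (chromosome 10, 76531588 to 76557138), also rose, by 0.70 ± 0.15 (adjusted p = 0.0272). Before TMM scaling its groups overlapped, with 35.1, 32.2, 38.01 and 27.4 CPM with placebo and 39.5, 34.0 and 64.3 CPM with NAC.

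Among the regulators, Srebf1 rose with NAC and the other 5 did not pass. Srebf1 had 115, 83.3 and 78.3 CPM in live WT, live heterozygous and dead heterozygous placebo libraries, 134 CPM in the null placebo library and 188, 126 and 172.5 CPM with NAC, so that the null placebo value lay above the live heterozygous NAC value. Its log2 fold change was 0.89 ± 0.23 (adjusted p = 0.0396). Among the fatty acid enzymes only Elovl5, an elongase of polyunsaturated fatty acids, passed. It had 193, 151, 168 and 255 CPM with placebo and 353, 335.5 and 297 CPM with NAC, without overlap, and a log2 fold change of 1.04 ± 0.26 (adjusted p = 0.0369). Fasn had 490.5, 317, 343 and 520 CPM with placebo against 342.5, 310 and 408 CPM with NAC, and did not pass.

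**Figure D2:**
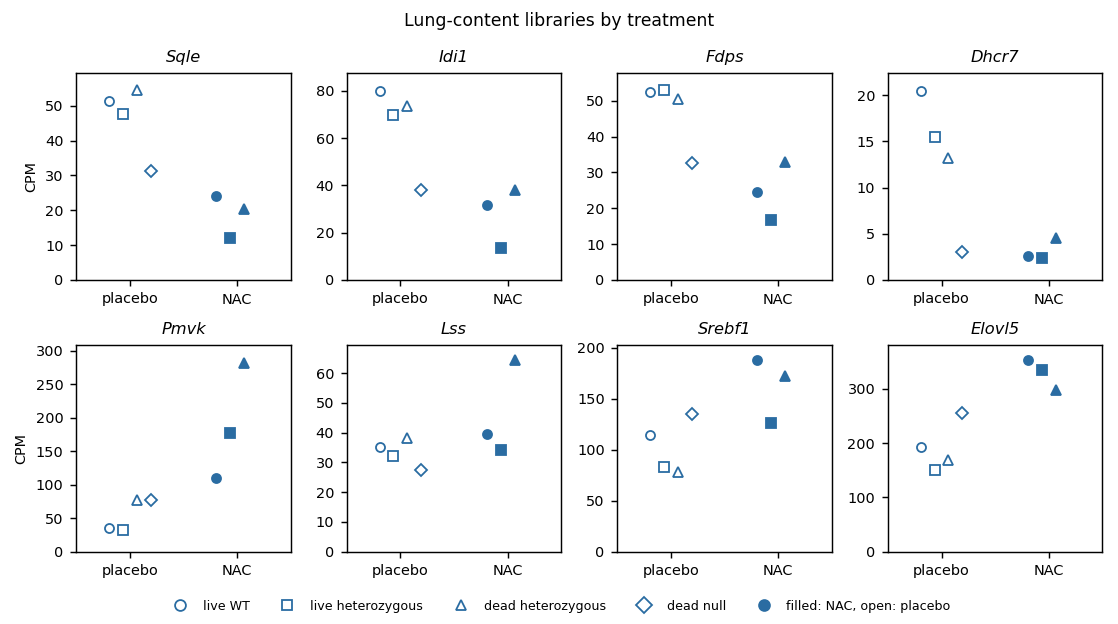
Level (CPM, linear axis from 0) of the 8 members that passed the test in the 4 placebo (open) and 3 NAC (filled) lung-content libraries, by pup group. Sqle, Idi1, Fdps and Dhcr7 are lower and Pmvk, Srebf1 and Elovl5 higher with NAC in each of the 3 pup groups that have both, and for Sqle, Idi1, Fdps and Dhcr7 the null placebo library (diamond) lies close to the NAC libraries.

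Live WT, live heterozygous and dead heterozygous pups each gave a NAC and a placebo library of lung content, and the fit with pup group as a block used these 6. It called the same 8 members and 7 more, all lower with NAC, namely Hmgcs1, Mvk, Mvd, Cyp51, Nsdhl, Ebp and the sterol carrier Stard4. The log2 fold changes of the 11 that fell ranged from -2.09 (Dhcr7) to -0.62 (Stard4). This made 4 of 32 higher, against 14.4% of 14247 genes, and 11 lower, against 11.2%. Within the pairs, 14 of 16 sterol enzymes were lower with NAC in all 3 pairs, the other 2 being Pmvk and Lss. Over all members 16 were lower and 6 higher in all 3 pairs, against 31.3% and 29.3% of all genes. Of the 10 fatty acid enzymes, 1 was lower and 2 were higher in all 3 pairs.

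Hmgcs1 showed the pattern of the wider set, with 162, 154 and 159 CPM in the paired placebo libraries, 86.1, 64.1 and 99.2 CPM with NAC and 94.8 CPM in the null placebo library. It did not pass over all 7 libraries (log2 fold change -0.56 ± 0.17, adjusted p = 0.0559) and passed with the block (-0.66 ± 0.14, adjusted p = 0.0125). Cyp51, lanosterol demethylase, had 49.6, 44.6 and 49.2 CPM in the paired placebo libraries and 23.8, 9.12 and 25.9 CPM with NAC, and 20.3 CPM in the null placebo library. Mvk, mevalonate kinase, had 19.2, 22.5 and 17.1 CPM in the paired placebo libraries in the same order and 10.2, 3.73 and 9.55 CPM with NAC. Nsdhl, a sterol dehydrogenase, had 22.7, 21.5 and 19.2 CPM with placebo and 7.69, 5.39 and 12.4 CPM with NAC. In both, every paired placebo library was above every NAC library. Mvd, which makes isopentenyl diphosphate, had 17.0 to 17.7 CPM with placebo and 6.47 to 9.84 CPM with NAC in these pairs. Ebp, a sterol isomerase, had 19.5 to 21.8 and 5.39 to 12.8 CPM, and Stard4 had 40.3 to 49.5 and 17.96 to 27.3 CPM. After scaling, 11 of 32 members had their null value inside the NAC range alone, 5 inside the placebo range alone, 1 inside both and 15 inside neither. Of the 15 members called with the block, 6 lay inside the NAC range alone, 1 inside the placebo range alone and 8 inside neither. The same count was not made over all genes, so it cannot be said whether it is particular to these members.

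Most calls were lost without certain single libraries. Leaving out the live WT or the live heterozygous placebo library left 0 members called, and 1 and 0 of all genes. Leaving out the dead heterozygous placebo library left only Pmvk, among 33 genes higher and 3 lower of 14227. Leaving out the live heterozygous NAC library left Pmvk as the 1 gene called. Leaving out the live WT NAC library left Pmvk, Lss and Sqle, among 619 genes higher and 360 lower of 13913. Leaving out the dead heterozygous NAC library left 7 member calls, among 1279 genes higher and 870 lower of 14219. Leaving out the null placebo library gave 15, among 2269 genes higher and 1840 lower of 14247. Over those 7 fits the log2 fold change of Sqle stayed between -1.25 and -0.95 and that of Pmvk between 1.87 and 2.52. In each pair the NAC and the placebo library carried different tissue labels, and with labelled tissue as a covariate only Pmvk passed. With library size alone as scaling, 5 members passed and the median over all genes moved from -0.02 to -0.24 on the log2 scale.

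Tissue makeup was not the same under both treatments. The summed level of 12 lung markers was 10956 to 23321 CPM with NAC and 17346 to 26901 CPM with placebo, that of 12 liver markers 784 to 1465 and 250 to 912 CPM, and that of 4 type 2 cell lipid genes 459 to 1157 and 944 to 1405 CPM. The summed level of 5 thymus markers was 2.49 to 3.40 CPM with NAC and 3.39 to 4.73 CPM with placebo, and that of the 9 adipocyte markers 23.4 to 34.7 and 11.5 to 24.2 CPM. All these ranges overlapped between treatments, as did those of the erythroid, cardiac muscle and proliferation sums and of the share of Rn45s. Within the 3 pairs the liver and adipocyte sums were higher with NAC in each and the thymus and erythroid sums lower in each. The lung and type 2 sums were lower with NAC in both live pairs and higher in the dead heterozygous pair. The part of these in the result was not tested. The defining adipocyte markers Adipoq, Plin1, Ucp1, Lep and Cfd were at 0 to 0.677 CPM in all lung-content libraries.

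Of 36 further genes of the pathway fixed as a list, 30 were tested in lung-content libraries, of which 3 rose and 3 fell with NAC, beside the 7.80% and 5.46% of all genes in that fit. Msmo1, a sterol enzyme, fell, with a log2 fold change of -0.93 ± 0.23 (adjusted p = 0.0363), as did Soat1, which esterifies cholesterol (-0.88 ± 0.16, adjusted p = 0.0217). Mylip, a sterol-induced ubiquitin ligase, rose by 1.51 ± 0.30 (adjusted p = 0.0245), Dgat2, which makes triglyceride, by 1.01 ± 0.27 (adjusted p = 0.0398) and Lpin1, a phosphatidate phosphatase, by 2.40 ± 0.56 (adjusted p = 0.0313).

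The promoters of 4 of these members are shown because Hmgcs1 and Idi1 were lower and Lss and Elovl5 higher with NAC. Each is the 250 bases before the RefSeq transcript start (GRCm38.p6, plus strand), 5′ to 3′, and capitals mark matches on either strand to a sterol regulatory element (TCACNCCAC), an E-box (CACGTG), an NF-Y box (CCAAT) or an Sp1 box (GGGCGG). The windows are chr13:119690101-119690350 for Hmgcs1, chr13:8885356-8885605 for Idi1, chr10:76531355-76531604 for Lss and chr9:77917115-77917364 for Elovl5. RefSeq starts differ from the GENCODE gene positions given above. The Idi1 window runs past the GENCODE start at 8885501, and the Lss window past that at 76531588.
Hmgcs1: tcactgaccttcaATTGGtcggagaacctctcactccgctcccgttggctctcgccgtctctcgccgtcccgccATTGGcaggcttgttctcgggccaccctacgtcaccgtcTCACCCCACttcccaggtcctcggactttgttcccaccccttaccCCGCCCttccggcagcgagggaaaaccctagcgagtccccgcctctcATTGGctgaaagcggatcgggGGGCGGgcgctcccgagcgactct
Idi1: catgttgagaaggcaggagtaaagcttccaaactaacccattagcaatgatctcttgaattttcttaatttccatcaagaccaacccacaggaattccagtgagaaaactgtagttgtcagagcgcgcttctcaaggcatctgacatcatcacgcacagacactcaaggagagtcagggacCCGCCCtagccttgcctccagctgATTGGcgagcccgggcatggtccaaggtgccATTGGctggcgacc
Lss: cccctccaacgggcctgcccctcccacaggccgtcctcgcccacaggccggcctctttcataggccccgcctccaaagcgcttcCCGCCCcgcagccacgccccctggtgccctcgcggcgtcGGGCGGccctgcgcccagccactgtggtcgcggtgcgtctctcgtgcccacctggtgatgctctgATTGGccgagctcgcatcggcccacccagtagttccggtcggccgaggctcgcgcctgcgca
Elovl5: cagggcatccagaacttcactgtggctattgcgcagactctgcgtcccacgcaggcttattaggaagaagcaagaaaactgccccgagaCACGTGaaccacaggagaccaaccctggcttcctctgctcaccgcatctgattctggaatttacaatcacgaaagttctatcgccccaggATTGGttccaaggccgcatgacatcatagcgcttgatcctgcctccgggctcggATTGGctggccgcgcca
Hmgcs1 held 1 sterol regulatory element, 3 NF-Y and 2 Sp1 boxes in this window, Idi1 held 2 NF-Y boxes and 1 Sp1 box, Lss 1 NF-Y and 2 Sp1 boxes, and Elovl5 1 E-box and 2 NF-Y boxes. Both pairs of genes thus held NF-Y boxes. RefSeq windows from 250 bases before to 50 after the start were matched for 26 of 32 members, which had 35 windows in all, and not for Scd1, Fdft1, Sqle, Stard4, Scd2 and Fdps. An NF-Y box lay in 24 of these 35 windows (68.6%) and in 37.4% of all 32851 windows, and an Sp1 box in 68.6% and 35.7%. An E-box lay in 20.0% and 7.15%. The sterol element as spelled was found in 1 of the 35 member windows, that of Hmgcs1, and in 1.24% of all windows. A match describes the letters only.

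In the 8 liver-content libraries (5 NAC and 3 placebo) no member passed for NAC against placebo, and neither did any of 13469 genes (0% higher and 0% lower), with 273 genes and 3 members at an unadjusted p under 0.05. DESeq2 called 1 gene and no member. The 3 members were Insig2 (log2 fold change -0.76 ± 0.18), Pmvk (0.77 ± 0.29) and Elovl6 (0.98 ± 0.41), each with an adjusted p of 1.00. The fitted values were above 0 for 26 of 32 members, with a median of 0.40 against 0.02 over all genes, which describes these libraries and is not a call.

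With pup group as a block over 6 libraries, again no member passed, and 4 of 13847 genes did (0.0289% higher and 0% lower). In that fit 22 members and 1611 genes had an unadjusted p under 0.05, with the smallest adjusted p of 0.0888 for Elovl6. Within pairs, 22 of 32 members were higher with NAC in all 3 pairs and 3 were lower (Insig2, Scap and Elovl5), against 19.5% and 16.2% of all genes. Among the fatty acid enzymes 8 of 10 were higher in all 3 pairs, among the sterol enzymes 11 of 16 and among the regulators 3 of 6.

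Scd1, Scd2 and Insig1 had the widest fold ranges in these libraries. Scd1 had 70.9, 12.02 and 140 CPM in live WT, live heterozygous and dead heterozygous placebo libraries and 181.5, 85.3 and 241 CPM with NAC. The dead null NAC libraries had 317 CPM (labelled lung) and 12.2 CPM (labelled liver). Thus NAC was higher within each pair, and the null libraries stood at the top and near the bottom of the whole range. Scd2, the neighbouring desaturase, had 145, 37.1 and 213 CPM with placebo, 410.5, 251 and 474 CPM with NAC, and 245 and 45.9 CPM in the null libraries.

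Insig1 had 134.5, 68.8 and 270 CPM with placebo, 509, 201 and 451 CPM with NAC and 495 and 65.6 CPM in the null NAC libraries labelled lung and liver. Fasn had 55.0, 44.8 and 82.4 CPM with placebo, 170, 116 and 154 CPM with NAC and 115 and 42.9 CPM in the null libraries. Srebf1 had 65.2, 39.9 and 88.8 CPM with placebo, 151, 115 and 127 CPM with NAC and 166 and 41.1 CPM in the null libraries. For these genes every NAC library of the paired pup groups was above its placebo library, and the null NAC library labelled liver was at or near the lowest placebo value. Elovl6 differed by a like amount in each pair, with 30.8, 30.0 and 36.6 CPM with placebo and 71.4, 66.2 and 98.8 CPM with NAC, a mean paired log2 difference of 1.28 ± 0.14 (SD, n = 3 pairs). Hmgcs1 differed less, with 214, 233 and 161 CPM with placebo and 288, 273 and 315 CPM with NAC.

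**Figure D3:**
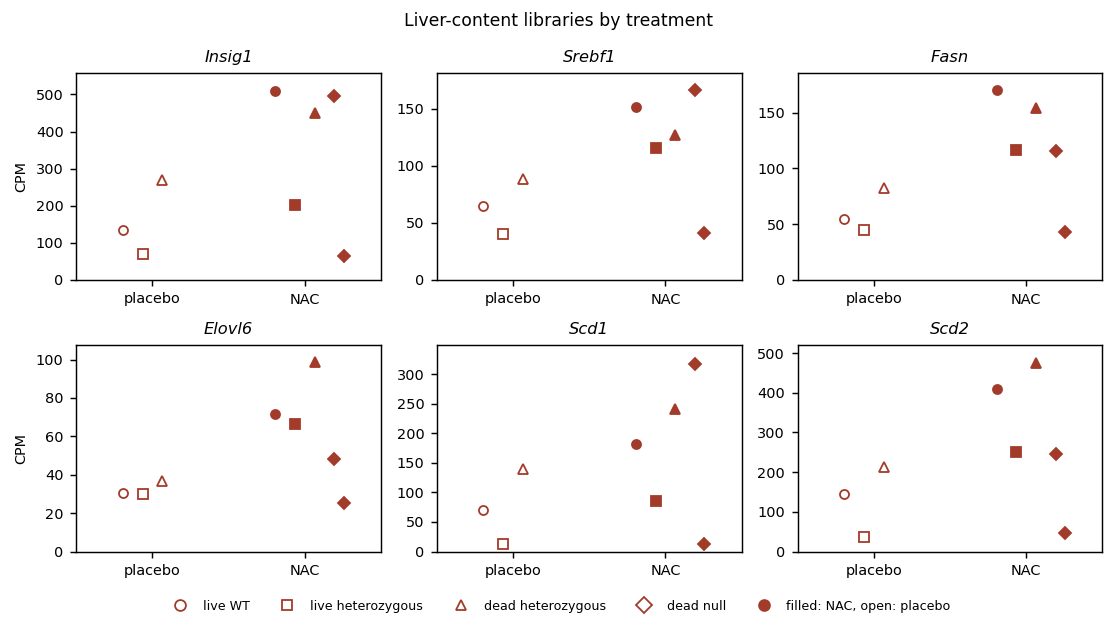
Level (CPM, linear axis from 0) of Insig1, Srebf1, Fasn, Elovl6, Scd1 and Scd2 in the 3 placebo (open) and 5 NAC (filled) liver-content libraries, by pup group. NAC is higher within each paired pup group, and the null NAC libraries (diamonds) lie far apart.

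The null NAC libraries of liver content differed by more than most pairs. On TMM-scaled values the library labelled lung exceeded that labelled liver by 5.03 on the log2 scale for Scd1, 3.24 for Insig1, 2.74 for Scd2, 2.34 for Srebf1 and 2.28 for Acss2, which makes acetyl-CoA from acetate. Mvk and Sc5d differed by -0.06 and -0.03. Without the null library labelled liver, 18 members and 859 of 13606 genes had an unadjusted p under 0.05 and none passed. Without the dead heterozygous pair the blocked fit called 9 members higher with NAC, among 158 of 12696 genes. Without the live WT pair it called 6 (Insig1, Fasn, Acss2, Scd1, Scd2 and Elovl6), among 113 of 13625 genes, and without the live heterozygous pair 0 members and 0 genes. Each NAC library again carried a tissue label different from that of its placebo pair.

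The libraries low in these genes were also low in red cell and proliferation markers. The summed level of the 6 erythroid markers with a unique symbol, of 9 listed, was 2050 CPM in the live heterozygous placebo, 2289 in the null NAC library labelled liver and 4810 in the live WT placebo library, and 6739 to 11718 CPM in the other 5. The summed level of 4 proliferation markers was 445, 450 and 726 CPM in the same 3 libraries and 951 to 1614 CPM in the other 5. The 10 fatty acid enzymes summed to 488, 473 and 659.5 CPM in the 3 libraries and to 852 to 1378 CPM in the other 5. Rn45s took 0.845% to 6.29% of counts, with the null library labelled liver highest. Within each of the 3 pairs the erythroid and proliferation sums were higher with NAC. In live WT, live heterozygous and dead heterozygous pups the erythroid sum was 11718, 7522 and 10820 CPM with NAC. With placebo it was 4810, 2050 and 9471 CPM. The proliferation sum was 1552, 1048 and 1614 CPM with NAC and 726, 445 and 1378 CPM with placebo in the same order. The summed level of the 9 adipocyte markers was 727 to 2008 CPM with NAC and 1028 to 2053 CPM with placebo, and lower with NAC in each of the 3 pairs. Pck1, which liver also uses to make glucose, gave 655 to 1966 CPM of it, while Adipoq, Plin1, Ucp1, Lep and Cfd were at 0 to 0.567 CPM. The part of blood-forming or fat cells in these values was not tested.

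**Figure D4:**
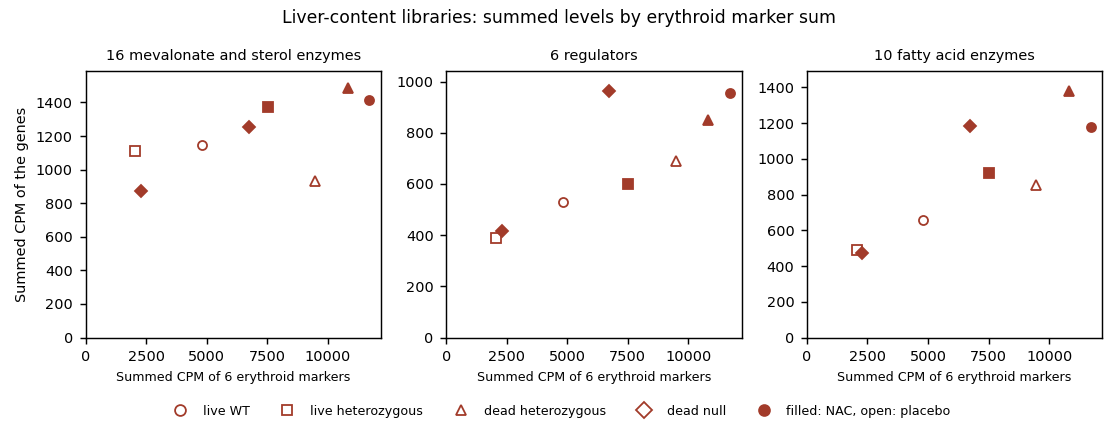
Summed CPM of the 16 sterol enzymes, 6 regulators and 10 fatty acid enzymes in the 8 liver-content libraries against the summed CPM of 6 erythroid markers. The fatty acid sum runs from 473 to 1378 CPM, and its lowest 3 libraries are also lowest in erythroid markers, whereas the dead heterozygous placebo library is high in erythroid markers and low in sterol enzymes at 931 CPM.

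Fasn and Sqle were used to find genes with a like pattern over the 8 liver-content libraries, which share depth, content and treatment differences. By Pearson's r of log2(CPM + 1) among 8665 genes, the 5 most like Fasn were Fcnb, Gstt1, Fbxo30, Foxp1 and Gabarapl2, with r from 0.973 to 0.989. Those most like Sqle were Alpl, Pyroxd2, Dock11, Pygl and Hnrnph3, with r from 0.908 to 0.954. None was a member.

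The difference of the NAC effect between lung-content and liver-content libraries was then tested directly. Over 15 libraries no member and no gene passed (0% higher and 0% lower of 14342), with 16 members and 1959 genes at an unadjusted p under 0.05, and DESeq2 called 4 members, with 117 genes higher and 113 lower. With pup group as a block over 12 libraries, a fit added after the data were seen, 2 members differed upwards in lung-content, against 2.28% of 14253 genes, and 10 downwards, against 2.29%. The log2 change with NAC was higher in lung-content libraries for Pmvk (difference 1.55 ± 0.28, adjusted p = 0.0246) and Elovl5 (1.78 ± 0.25, adjusted p = 0.0123). Elovl5 was higher with NAC in all 3 lung-content pairs and lower in all 3 liver-content pairs. Dhcr7 showed the widest gap (-2.90 ± 0.32, adjusted p = 0.00578), followed by Nsdhl, Fdps, Sqle, Mvd, Idi1, Cyp51, Elovl6, Hmgcs1 and Acss2. Within pairs, 10 members were higher with NAC in all 3 liver-content pairs and lower in all 3 lung-content pairs, against 5.67% of 12255 genes, and 2 the reverse, against 5.81%.

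**Figure D5:**
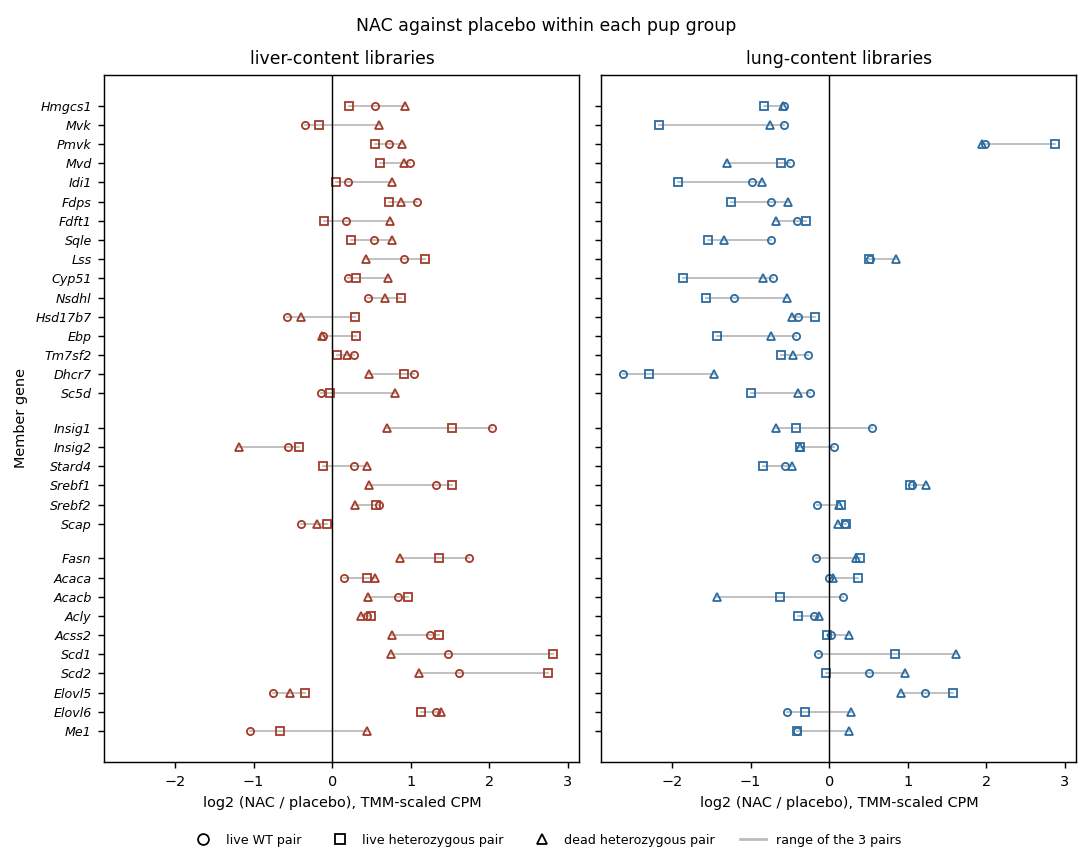
log2 ratio of NAC to placebo (TMM-scaled CPM) for each of the 32 genes in the live WT, live heterozygous and dead heterozygous pairs, in liver-content (left) and lung-content (right) libraries, with a line over the range of the 3 pairs. Most sterol enzymes lie right of 0 in liver-content and left of 0 in lung-content libraries, with Pmvk and Lss right of 0 in both.

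Dead pups were compared with live pups with treatment as a covariate, which addresses whether the genes followed survival as labelled. All WT libraries were from live pups and all null libraries from dead pups, so this comparison also holds genotype. In the 8 liver-content libraries (4 dead and 4 live) no member and none of 13469 genes passed (0% higher and 0% lower), with 729 genes and 3 members at an unadjusted p under 0.05. DESeq2 called 43 genes, among them Insig2. Insig2, a relative of Insig1 known for its abundance in fasted liver, had 141, 63.6, 78.3 and 58.1 CPM in the dead and 31.8, 38.5, 50.7 and 51.2 CPM in the live libraries. The dead libraries were all above the live ones, and the log2 fold change was 1.16 ± 0.17 (edgeR adjusted p = 0.262, DESeq2 adjusted p = 1.63e-05). Idi1 (-0.56 ± 0.18) and Sc5d (-0.50 ± 0.20) were the other members under 0.05 before adjustment.

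At heterozygous genotype alone, with 2 dead and 2 live liver-content libraries, 6 members were higher and 2 lower in dead pups, with 1015 genes higher and 957 lower of 13625. Scd1 was higher by 2.55, Scd2 by 1.77 and Insig1 by 1.63 on the log2 scale, and Me1 and Mvk were lower (-1.18 and -0.91). This fit leaves 1 residual degree of freedom, and erythroid markers were 9471 and 10820 CPM in the dead against 2050 and 7522 CPM in the live libraries.

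In the 7 lung-content libraries (3 dead and 4 live) no member and none of 14032 genes passed (0% higher and 0% lower), with 498 genes and 4 members at an unadjusted p under 0.05, and DESeq2 called 19 genes. Pmvk had 77.7, 76.6 and 282 CPM in the dead and 35.4, 32.6, 110 and 177 CPM in the live libraries (log2 fold change 1.14 ± 0.26, edgeR adjusted p = 1.00, DESeq2 adjusted p = 0.0205). The ranges overlapped because live NAC libraries were above dead placebo libraries. The dead against live effect, which also holds genotype, differed between lung-content and liver-content libraries for no member, against 0% of 14342 genes higher and 0.00697% lower. DESeq2 called Insig2 in that test (log2 difference -1.06, adjusted p = 0.0163).

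Taken by label, as the study grouped its samples, NAC and placebo libraries were 1 against 1, so these differences have no replicate check. Members past an absolute log2 fold change of 1 numbered 21 to 24 of 32. The share of all genes past it was 52% in dead heterozygous, 55.9% in dead null, 50.4% in live heterozygous and 50% in live WT pups for libraries labelled liver. It was 51.3%, 47%, 60.4% and 56% in the same order for those labelled lung. In all 8 pairs the NAC and the placebo library differed in marker content. Where the NAC library was liver-content, 18 to 21 members were higher and 1 to 5 lower, and where the NAC library was lung-content, 4 to 6 were higher and 17 to 20 lower. With library size alone the split in live WT pups labelled liver moved from 21 higher and 1 lower to 12 and 8.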

How the data were processed

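RNA was pooled and sequenced as 16 libraries. The authors aligned reads to Mouse.B38 (mm10) with the Omicsoft Sequence Aligner in Array Studio and deposited estimated counts per gene, of which 6.5% to 8.24% of values in a library were not whole. The authors quantified uniquely mapped reads, and the annotation release, the strand setting and the assignment of reads in overlapping genes are not given in the sources used here. The design assumed counts, so values were rounded to whole numbers. Submitters' processing notes name R 4.0.3 and edgeR 3.30.3.

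CPM used the library total. Fits within libraries of like marker content used edgeR 4.0.16 (R 4.3.3) with TMM factors, filterByExpr by survival status, the quasi-likelihood test and Benjamini-Hochberg adjustment over all genes tested, called at an adjusted p under 0.05. The test without the block was run on simulated counts that held no differences between pup groups. That run therefore cannot show how the test behaves with such differences, or with the block. Pup group, from the labels, was the block in the paired fits. Each library is a pool of its own group, so p-values of fits without the block measure the spread between libraries of different groups. Those of the paired fits measure how the difference between NAC and placebo varied between pup groups. The SE given with an edgeR log2 fold change is approximate. It is the absolute log2 fold change divided by the square root of the test's F statistic. Alternatives were DESeq2 1.42.0, other scalings, filters, covariates and sets of libraries. Label pairs (1 against 1) used a prior count of 0.125 and an absolute log2 fold change of at least 1. Gene positions are from GENCODE M21 and promoters from RefSeq. Python 3.11.15, pandas 2.3.3, numpy 2.4.6 and matplotlib 3.10.9 were used for summaries and plots.

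All members were analysed, those past a test were given with values per library or ranges, and other pathway genes were named only where they passed, a few of which are not reported here. The members and lists were chosen with earlier results of these data known. The mixed library was left out of the fits and entered as an alternative.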

Additional observations from a re-analysis of the deposited data

Results flagged for a closer look

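In 160 checks of a member within a group of 4 or more libraries, 8 values among 7 members stood apart by Dixon's criterion. Chance gives about 1 in 20, which over 160 checks is as many as were found. The groups also share libraries, so the values are listed only as a description. Among the 4 dead liver-content libraries, the dead heterozygous NAC library had 315.3 CPM of Hmgcs1, against 151.8 to 161.2 in the others, and 55.24 CPM of Acaca, against 34.55 to 36.69. In the same group the dead null NAC library labelled liver had 26.6 CPM of Me1, against 7.76 to 10.84. Among the 4 live lung-content libraries, the live heterozygous placebo library had 14.09 CPM of Acacb, against 5.768 to 6.771.

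Among the 4 placebo lung-content libraries the dead null one stood apart for 3 enzymes of the mevalonate pathway. It had 94.84 CPM of Hmgcs1 against 153.8 to 162.3, 9.82 CPM of Mvd against 17.01 to 17.67, and 32.69 CPM of Fdps against 50.57 to 53.12. In the same group the live WT library had 64.7 CPM of Scap, against 48.85 to 51.56.

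The effect of NAC differed between lung-content and liver-content libraries for 12 members in the edgeR fit with pup group as a block, tested as an interaction. That fit was added after the data were seen, and it called 2.28% of 14253 genes upwards and 2.29% downwards. The difference on the log2 scale, lung-content minus liver-content, was 1.549 for Pmvk and 1.783 for Elovl5. It was -2.902 for Dhcr7, -1.741 for Nsdhl, -1.722 for Fdps, -1.701 for Sqle, -1.635 for Mvd and -1.564 for Idi1. It was -1.508 for Cyp51, -1.467 for Elovl6, -1.223 for Hmgcs1 and -1.039 for Acss2. Without the block none of the 12 passed in edgeR.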

How the results depend on the processing

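For NAC against placebo in lung-content libraries 8 members were called, and 7 of 12 alternatives stayed within 1.5 times that count, among them the fit of libraries whose markers go with their label, which sets 2 live NAC libraries against 1 dead placebo library and so bears on survival as much as on NAC. DESeq2 called 13, among 1611 genes higher and 1116 lower of 14032, and no filter on low counts 13, among 1553 and 1106 of 18642. Library size alone called 5, among 320 and 550 of 14032, and labelled tissue as a covariate 1, among 131 and 48. With pup group as a block 15 were called, and leaving out the dead heterozygous, live WT or live heterozygous pair from that fit gave 13, 12 and 6. In the same order, 2099, 1277 and 693 genes were higher and 1812, 781 and 346 lower, of 12565, 13940 and 14055. Leaving out each library or pair in turn gave 0 to 15. In liver-content libraries all 11 alternatives called 0 members, the block among them, and leaving out a library or pair gave 0 to 9, with 9 in the blocked fit without the dead heterozygous pair and 6 without the live WT pair. The interaction of NAC with content called 0 members, and 4 with DESeq2, among 117 genes higher and 113 lower of 14322. It called 12 with the block, among 325 genes higher and 327 lower of 14253. For dead against live pups, DESeq2 called 1 member in liver-content and 1 in lung-content libraries and 1 for the difference between them. Heterozygous libraries alone called 8 in liver-content, and only libraries whose markers go with their label called 10 in lung-content libraries, with log2 fold changes turned to 2.15 for Dhcr7, -1.31 for Elovl5, -1.21 for Pmvk and -1.25 for Srebf1. In that fit survival and treatment cannot be told apart, since 2 live NAC libraries met 1 dead placebo library. Its dead group had no replicate, and most genes it called were not members. Its count of calls is therefore not a result about the members. Leaving out each library from the main fits of dead against live pups gave 0 members in both liver-content and lung-content libraries. With TMM scaling, 18 members lay above and 2 below in liver-content libraries, against 26.6% and 23.2% of 14078 genes. Where no cause is named, the cause was not tested. The lowest member count in a library was 17, so depth limits Tm7sf2 and Dhcr7 in lung-content libraries. Mvk (27 counts), Elovl6 (35), Nsdhl (39) and Ebp (39) also had few reads in the live heterozygous NAC library of lung content.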
